A study of Mus musculus with 32 samples.

Results

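Cholesterol is made in the liver from acetyl-CoA, and the transcripts described here are 7 genes of that pathway out of 20076 genes in a table of read counts: Hmgcs1, Idi1, Fdps, Sqle, Lss and Cyp51, which encode enzymes, and Srebf2, which encodes their main transcription factor. They were chosen by name, as members of sterol synthesis and of the control of LDL (low-density lipoprotein) uptake. All 7 were in the table, and none of them encodes a protein that takes up LDL itself. The study describes liver RNA, counted by 3′ mRNA tags (QuantSeq), from 32 male mice on a C57BL/6J background. They were either MCAD-KO (here KO), which lack the medium-chain acyl-CoA dehydrogenase encoded by Acadm in all tissues, or their wild-type littermates (WT). The mice ate a low-fat (LF) or a high-fat (HF) diet for 6 weeks and were killed fed or after a 16 h fast, which gave 8 groups of 4 mice, with labels for age between 7.5 and 16 in a unit the labels do not state. The study asked how the liver adapts to the loss of medium-chain fatty acid oxidation. By the rule that defines the set, WT LF fed replicate 2 and KO HF fasted replicate 4 were left out, which left 30 mice, 3 in these 2 groups and 4 in the others.

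Hepatic cholesterol synthesis is controlled by supply. When sterols in the endoplasmic reticulum are low, the protein SCAP carries the SREBP-2 precursor, the product of Srebf2, to the Golgi, where it is cut and released to the nucleus to activate the genes of the pathway; when sterols are high, INSIG proteins hold SCAP back. Insulin and feeding favour SREBP activity, and fasting lowers it. HMGCS1 joins acetyl-CoA and acetoacetyl-CoA in the cytosol, IDI1 and FDPS make isoprenoid units and join them into farnesyl diphosphate, SQLE oxidizes squalene, LSS closes the ring into lanosterol, and CYP51 removes a methyl group from it.

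The promoters are shown as a description of the genes, and their part in the differences between fed and fasted mice was not tested. RefSeq (GRCm38.p6) gave a window from 250 bases before to 50 bases after the annotated start for 5 of the 7 members, Hmgcs1, Idi1, Lss, Cyp51 and Srebf2. Capitals mark exact matches on either strand to TCACNCCAC (a core of the sterol regulatory element), CCAAT (the NF-Y box, which reads ATTGG on the other strand) and GGGCGG (the GC box bound by Sp1, CCGCCC on the other strand). The windows of 3 enzymes and of the regulator, each 300 bases and 5′ to 3′ on the strand of the gene, were as follows.
Hmgcs1, chr13:119690101-119690400, plus strand: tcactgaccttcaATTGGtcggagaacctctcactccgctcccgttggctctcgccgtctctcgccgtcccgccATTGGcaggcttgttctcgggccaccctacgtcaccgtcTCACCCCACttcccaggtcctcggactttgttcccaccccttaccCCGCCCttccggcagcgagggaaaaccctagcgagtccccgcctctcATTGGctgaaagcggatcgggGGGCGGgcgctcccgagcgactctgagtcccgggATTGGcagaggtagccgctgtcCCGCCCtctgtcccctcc
Lss, chr10:76531355-76531654, plus strand: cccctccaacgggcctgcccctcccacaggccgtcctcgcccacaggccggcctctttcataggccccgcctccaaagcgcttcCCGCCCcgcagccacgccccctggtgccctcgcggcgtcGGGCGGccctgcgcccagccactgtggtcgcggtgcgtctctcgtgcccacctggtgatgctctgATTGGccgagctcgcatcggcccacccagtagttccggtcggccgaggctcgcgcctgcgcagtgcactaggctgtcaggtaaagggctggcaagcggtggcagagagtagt
Cyp51, chr5:4104648-4104947, minus strand: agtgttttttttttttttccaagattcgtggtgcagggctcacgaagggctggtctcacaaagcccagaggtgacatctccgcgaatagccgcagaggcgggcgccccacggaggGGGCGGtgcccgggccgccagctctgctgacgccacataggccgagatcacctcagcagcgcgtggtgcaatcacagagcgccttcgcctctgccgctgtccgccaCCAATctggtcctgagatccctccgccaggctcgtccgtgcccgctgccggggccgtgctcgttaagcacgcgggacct
Srebf2, chr15:82147019-82147318, plus strand: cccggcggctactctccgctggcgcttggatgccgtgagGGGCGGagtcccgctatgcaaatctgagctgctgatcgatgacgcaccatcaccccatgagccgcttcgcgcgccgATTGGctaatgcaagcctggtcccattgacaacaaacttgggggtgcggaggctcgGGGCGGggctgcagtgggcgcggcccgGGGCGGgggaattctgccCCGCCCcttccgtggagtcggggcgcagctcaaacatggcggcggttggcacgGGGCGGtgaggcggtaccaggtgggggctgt

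The core of the sterol regulatory element was found in 1 of the 5 windows, that of Hmgcs1, where it began 137 bases before the start. It was present in 1.22% of the 27025 promoters of the same length and in 0 of 11 other enzymes of sterol synthesis. Lack of this exact string does not show that a gene lacks the element. The CCAAT box was in all 5 windows and in 9 of the 11 other enzymes, against 37.9% of all promoters. It lay between 14 and 62 bases before the start at least once in each of the 4 member enzymes. Hmgcs1 held 4 copies of it, Idi1 held 2, and Lss, Cyp51 and Srebf2 held 1 each, with the single copy of Srebf2 135 bases before the start. The GC box was also in all 5 windows and in 10 of the 11 other enzymes, against 35.9% of all promoters, with 5 copies in Srebf2. These matches are letters in a window and do not show that a factor bound there.

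Total counts per mouse ranged from 2031053 to 4292200 with a median of 2899001, and 3 counts corresponded to between 0.699 and 1.48 CPM (counts scaled to 1000000 reads per mouse). The library of KO HF fasted replicate 4 had 30733 CPM of heart muscle markers, against at most 59.8 CPM in the 30 mice, and 807 CPM of hepatocyte markers, against 43035 CPM or more. It is therefore treated as a heart library and not as liver. Reads of Acadm numbered 566 to 2752 across the 15 WT livers and 26 to 94 across the 15 KO livers. Of the 30 mice, WT HF fasted replicate 2 carried 16864 CPM of acinar pancreas markers and KO HF fed replicate 1 carried 2519 CPM, while the next mouse had 48.3 CPM, so results in HF mice are also given without these 2. All 7 markers of the adrenal cortex, which makes sterols too, had reads in KO LF fasted replicate 3, with a sum of 291.9 CPM, and in KO LF fasted replicate 4, with 126 CPM. No other mouse exceeded 41.6 CPM of them. Hepatocyte markers summed to 43035 to 60768 CPM in fed and 43511 to 75666 CPM in fasted mice. Macrophage markers (all 10 in the table) summed to 429 to 593 CPM in fed and 303 to 792 CPM in fasted mice, and acute-phase genes (all 6 in the table) to 362 to 960 CPM and 550.2 to 3300.5 CPM. The highest mouse for acute-phase genes, with the next at 1100.5 CPM, and for hepatocyte markers, with the next at 64553 CPM, was KO HF fasted replicate 3, on which several of the HF values below rest. The part of these markers in the results below was not tested.

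Fasting lowered the transcripts of the 5 enzymes with enough counts, Hmgcs1, Fdps, Sqle, Lss and Cyp51, between 2.77-fold and 10.5-fold averaged over the 4 combinations of genotype and diet. Srebf2 was 1.36-fold lower on average, which did not pass the threshold after adjustment over all genes. Of the 6 members that passed the filter on low counts, 5 were called lower, where 9.14% of the 11566 genes tested were called lower (edgeR quasi-likelihood test, Benjamini-Hochberg adjusted p below 0.05). In a piece of whole liver, fewer cells of a type and less RNA per cell cannot be told apart. In all 5 enzymes the means of the 4 fed groups were the highest, those of the 2 HF fasted groups came next and those of the 2 LF fasted groups were the lowest. Among the fed groups, no difference between diets or between genotypes was called for any member.

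**Figure D1:**
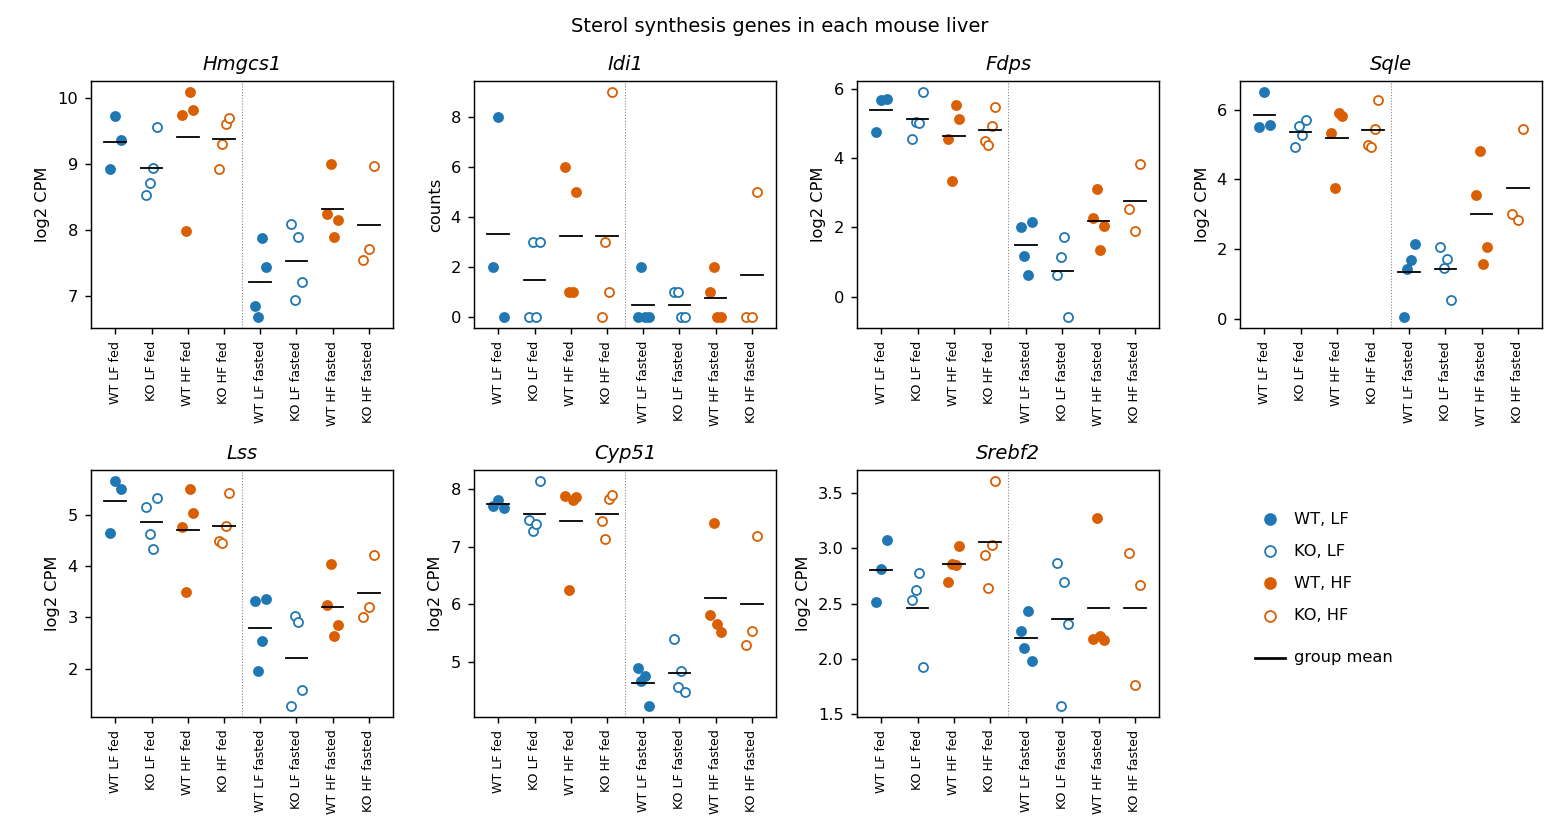
Each point is 1 mouse, in log2 CPM (prior count of 2) for the 6 tested genes and in raw counts for Idi1, with the 8 groups along the x axis, WT filled and KO open, LF blue and HF orange, and bars at the group means. In LF mice every fasted point of the 5 enzymes lies below every fed point, and in HF mice fed and fasted points overlap for Hmgcs1, Sqle and Cyp51 in both genotypes and for Lss in WT.

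Hmgcs1 (chr13:119690379-119708260) makes cytosolic HMG-CoA at the start of the pathway and fell by 1.47 ± 0.21 on the log2 scale on average (edgeR adjusted p = 1.5e-05). On the LF diet, WT mice had 485, 845 and 655 CPM when fed and 115, 102, 234 and 174 CPM when fasted, a log2 fold change of -2.08 ± 0.44 (SE; edgeR adjusted p = 0.0028). The KO mice on this diet had 369, 418, 490.0 and 758 CPM when fed and 271, 123, 237 and 148 CPM when fasted (-1.39 ± 0.41, adjusted p = 0.024). Both LF comparisons were called and their mice did not overlap. On the HF diet, WT mice had 857, 253, 1086 and 897 CPM when fed and 301, 512, 236 and 283 CPM when fasted (-1.22 ± 0.41, adjusted p = 0.24). The KO mice on the HF diet had 486, 632, 779 and 827 CPM when fed and 187, 208 and 499 CPM when fasted (-1.19 ± 0.45, adjusted p = 0.42). In WT the fed mouse at 253 CPM lay among the fasted mice, and the other fed mice were all above them. In KO the fasted mouse at 499 CPM lay just above the lowest fed mouse at 486 CPM.

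Fdps (chr3:89093588-89101959), which makes farnesyl diphosphate, the last intermediate shared by sterols and other isoprenoids, had the largest average change, a log2 fold change of -3.39 ± 0.29 (adjusted p = 1.2e-09). WT LF mice had 26.4, 50.6 and 51.0 CPM when fed and 3.35, 1.60, 0.863 and 3.80 CPM when fasted (log2 fold change -4.04 ± 0.58, adjusted p = 3.4e-05). KO LF mice had 22.7, 32.5, 31.2 and 58.8 CPM when fed and 0.882, 1.55, 2.64 and 0 CPM when fasted (-4.84 ± 0.64, adjusted p = 5.8e-06). The fasted LF mice had at most 15 reads of this gene, and 1 of them had none, which in that mouse allows up to 1.08 CPM. WT HF mice had 22.6, 9.52, 45.6 and 34.5 CPM when fed and 4.13, 7.90, 1.86 and 3.47 CPM when fasted (-2.74 ± 0.52, adjusted p = 0.013). KO HF mice had 21.7, 20.0, 29.4 and 43.3 CPM when fed and 5.15, 3.06 and 13.5 CPM when fasted (-1.94 ± 0.54, adjusted p = 0.12). Fdps was the member whose fed and fasted mice did not overlap in any of the 4 settings.

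Sqle (chr15:59315077-59331192), whose product squalene epoxidase is a rate-limiting step after squalene, fell by 3.02 ± 0.37 on the log2 scale on average (adjusted p = 1.8e-06). WT LF mice had 44.2, 89.5 and 46.1 CPM when fed and 0.373, 2.01, 2.59 and 3.80 CPM when fasted (log2 fold change -4.67 ± 0.81, adjusted p = 5.0e-04). KO LF mice had 29.5, 45.5, 38.1 and 51.0 CPM when fed and 3.53, 2.06, 2.64 and 0.782 CPM when fasted (-4.20 ± 0.81, adjusted p = 8.7e-04). The lowest fed LF mouse was thus at 29.5 CPM and the highest fasted one at 3.80 CPM. WT HF mice had 39.3, 12.8, 59.3 and 55.1 CPM when fed and 11.0, 27.5, 2.33 and 3.47 CPM when fasted (-1.96 ± 0.64, adjusted p = 0.23). KO HF mice had 31.1, 29.6, 43.0 and 76.6 CPM when fed and 7.41, 6.47 and 42.5 CPM when fasted (-1.24 ± 0.67, adjusted p = 0.73). In the KO the value rested on replicate 3, the fasted mouse at 42.5 CPM: without it, the mouse with the most acute-phase transcripts, the log2 fold change was -2.69. In the WT it was -2.88 without fasted replicate 2, the mouse with acinar pancreas markers.

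Lss (chr10:76531588-76557138), lanosterol synthase, fell by 2.01 ± 0.23 on the log2 scale on average (adjusted p = 7.4e-08). WT LF mice had 24.3, 49.6 and 44.2 CPM when fed and 9.31, 3.21, 5.18 and 9.62 CPM when fasted (-2.48 ± 0.46, adjusted p = 5.4e-04). KO LF mice had 34.6, 24.03, 19.6 and 39.4 CPM when fed and 1.77, 7.47, 6.86 and 2.35 CPM when fasted (-2.63 ± 0.47, adjusted p = 2.0e-04). Both LF settings were called, and their fed and fasted mice did not overlap. The HF settings were not called: the log2 fold change was -1.65 ± 0.43 in WT (adjusted p = 0.075), with fed mice at 10.6 to 44.4 CPM and fasted mice at 5.59 to 15.8 CPM. In KO HF mice it was -1.29 ± 0.46 (adjusted p = 0.33), with fed mice at 21.2 to 42.0 CPM and fasted mice at 7.41 to 17.9 CPM, which do not overlap.

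Cyp51 (chr5:4081145-4104746), lanosterol 14α-demethylase, fell by 2.13 ± 0.23 on the log2 scale on average (adjusted p = 2.7e-07). WT LF mice had 210.1, 226 and 204 CPM when fed and 29.1, 24.9, 26.3 and 18.2 CPM when fasted (-3.12 ± 0.49, adjusted p = 1.6e-04). KO LF mice had 176, 154, 168 and 283 CPM when fed and 41.5, 22.9, 28.0 and 21.5 CPM when fasted (-2.79 ± 0.46, adjusted p = 1.9e-04). The highest fasted LF mouse was thus at 41.5 CPM and the lowest fed one at 154 CPM. WT HF mice had 236, 75.8, 226 and 233 CPM when fed and 55.9, 169.7, 50.04 and 45.5 CPM when fasted (-1.27 ± 0.43, adjusted p = 0.26). KO HF mice had 174, 139.8, 229 and 238 CPM when fed and 38.6, 45.6 and 146 CPM when fasted (-1.34 ± 0.47, adjusted p = 0.35). Fasted replicate 2 of the WT and fasted replicate 3 of the KO lay within or near the range of the fed mice, and the log2 fold change was -1.93 and -2.21 without them. Cyp51 overlaps Akap9 on the opposite strand, and the strand setting of the counting is not given in the sources used here, so reads of Akap9 in the overlap cannot be told apart from its own.

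Srebf2 (chr15:82147181-82205379) had 8 to 36 counts per mouse and the smallest differences. It ranged from 5.05 to 7.74 CPM in fed and from 3.29 to 4.74 CPM in fasted WT LF mice, which did not overlap, and the log2 fold change of -0.70 ± 0.42 was not called (adjusted p = 0.39). In KO LF mice the ranges were 3.13 to 6.18 CPM fed and 2.32 to 6.62 CPM fasted (-0.10 ± 0.40, adjusted p = 0.91). In WT HF mice they were 5.83 to 7.47 CPM fed and 3.85 to 9.03 CPM fasted (-0.37 ± 0.38, adjusted p = 0.86). In KO HF mice they were 5.59 to 11.5 CPM fed and 2.72 to 7.09 CPM fasted (-0.61 ± 0.41, adjusted p = 0.84). Averaged over the settings the log2 fold change was -0.44 ± 0.20, with a 95% interval of -0.85 to -0.03 (unadjusted p = 0.034, adjusted p = 0.13). At this depth a decrease of Srebf2 was thus not established, and its interval lies apart from those of the 5 enzymes, the nearest of which is that of Hmgcs1 at -1.91 to -1.03.

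Idi1 (chr13:8885501-8892451), isopentenyl-diphosphate isomerase, had 0 to 9 counts per mouse and did not pass the filter. It had reads in 11 of 15 fed mice, 42 in all, and in 6 of 15 fasted mice, 12 in all. With no filter its log2 fold change with fasting, averaged over the settings, was -1.71 ± 0.72 (edgeR adjusted p = 0.13 over 19532 genes). A processed pseudogene, Gm13502, has the same sequence as Idi1 transcripts over 684 bases and had 45 counts in the 30 mice, and Fdps shares 98.9% of 1062 bases with the pseudogene Gm3571, which had 961 counts. Reads that fit both copies may be divided between them or not counted, so the levels of Idi1 and Fdps are uncertain. The other members had no copy in the table at 95% identity over at least 200 bases.

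**Figure D2:**
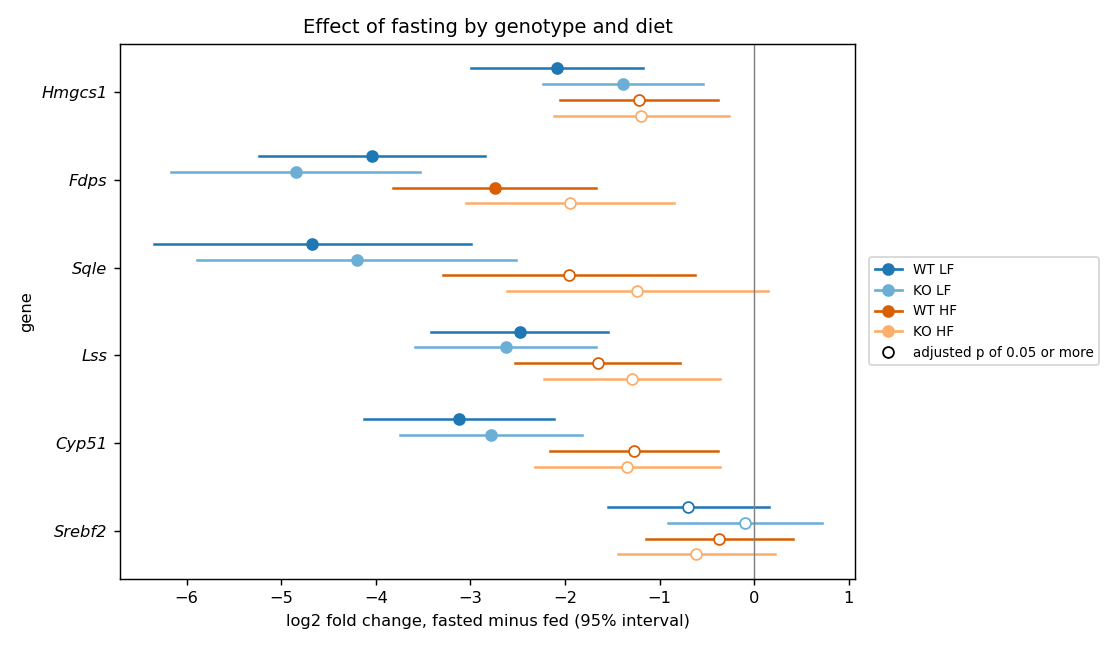
Points are log2 fold changes of fasted against fed mice for the 6 tested genes in the 4 combinations of genotype and diet, lines are 95% intervals, and filled points passed an adjusted p of 0.05 over 11566 genes. The LF values of the 5 enzymes run from -1.39 to -4.84 and are all filled, and of the HF values that of Fdps in WT is filled.

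Counted by setting, 5 of 6 members were called lower with fasting in WT LF mice, where 3.79% of all genes were, and 5 of 6 in KO LF mice, where 6.53% were. Without the 2 mice with adrenal cortex markers, 4 of 6 were called in KO LF mice, and Hmgcs1 was not (-1.38, edgeR adjusted p = 0.11). Hmgcs1 also lost its call there when fasted replicate 2, fasted replicate 4 or fed replicate 4 was left out (adjusted p = 0.074 to 0.089). In WT HF mice Fdps alone was called, 1 of 6, with 0.156% of all genes, and in KO HF mice 0 of 6 with 0.233%. At an unadjusted p below 0.05, 5 members in WT HF and 4 in KO HF mice were lower. Of the 11566 genes tested, 1063 in WT HF and 871 in KO HF mice passed that threshold in either direction. The call count in WT HF mice was 4 without fasted replicate 2, 2 without fed replicate 2, and 0 without fasted replicate 1, 3 or 4 or fed replicate 3. Every fasted mouse lay below every fed mouse for 6 of 6 members in WT LF (10.2% of all genes), 5 in KO LF (6.97%), 1 in WT HF (2.7%) and 2 in KO HF (5.2%). With both genotypes averaged, 5 of 6 members were called lower on the LF diet (9.41% of all genes) and 4 of 6 on the HF diet (1.19%), all but Sqle and Srebf2. In HF mice, without the 2 mice with acinar pancreas markers, the call count of WT was 4 and Sqle was called over both genotypes (log2 fold change -2.13, adjusted p = 0.0099).

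The labels place the libraries on 2 sequencing lanes, and all WT LF fed mice were on lane 8. Within lane 7 (16 mice, with genotype, diet and feeding as terms), the fasting effect on the 5 enzymes was -1.19 to -2.85 on the log2 scale, and Hmgcs1 had an adjusted p of 0.053 where the other 4 were called. Within lane 8 (14 mice) it was -1.57 to -3.29, and all 5 were called. Srebf2 was at -0.21 and -0.70 in the 2 lanes, and neither was called. The diet effect in the 2 lanes was 0.20 to 0.96 and 0.13 to 0.72, and the genotype effect -0.33 to -0.0077 and -0.01 to 0.54, with no member called.

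The HF diet was compared with the LF diet in fed and in fasted mice. In fasted mice 3 of the 6 members were higher on the HF diet. Averaged over both genotypes, Sqle was 2.65 ± 0.61 higher on the log2 scale (edgeR adjusted p = 0.0089), Fdps 1.63 ± 0.50 (adjusted p = 0.046) and Cyp51 1.58 ± 0.33 (adjusted p = 0.0044). Of all genes, 3.75% were called higher. The 8 LF fasted mice had 50 reads of Sqle and 43 of Fdps in all, at most 15 in a mouse, so these 2 values rest on few reads. Hmgcs1 was at 0.85 ± 0.30 (adjusted p = 0.094), Lss at 0.81 ± 0.35 (adjusted p = 0.19) and Srebf2 at 0.27 ± 0.29 (adjusted p = 0.70). In fed mice the same differences lay between -0.47 and 0.37, with 95% intervals reaching from -1.13 to 0.93, and none was called. The averages over genotypes within a diet or a feeding state were added after the data had been seen.

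Within a single genotype no member was called for diet. The counts were 0 of 6 in WT fed (0.0778% of all genes called in either direction), WT fasted (1.12%), KO fed (0.00865%) and KO fasted mice (1.68%), and 0 of 6 averaged over all 4 (3.49%). All 6 members had a positive value in both fasted comparisons, from 0.36 to 2.20 in WT and from 0.16 to 3.11 in KO. The largest single differences were Sqle in KO fasted mice (3.11 ± 0.87, adjusted p = 0.071) and Fdps in the same mice (2.56 ± 0.74, adjusted p = 0.077). The fasted HF mice behind these values were few: without KO HF fasted replicate 3 the diet effect in fasted mice over both genotypes fell to 1.93 for Sqle and 1.21 for Fdps, and 1 of the 3 calls was left. Without the 2 mice with acinar pancreas markers, Fdps was not called (1.42, adjusted p = 0.12), nor was it without the 2 with adrenal cortex markers (1.60, adjusted p = 0.087).

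**Figure D3:**
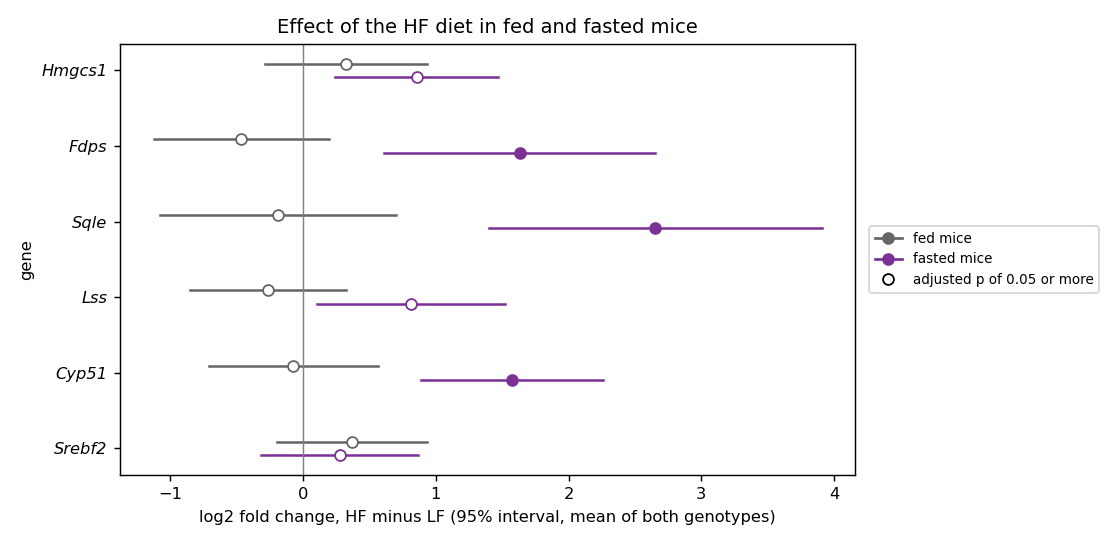
Points are log2 fold changes of HF against LF mice, averaged over both genotypes, for the 6 tested genes in fed (grey) and fasted (purple) mice, with 95% intervals as lines and filled points where the adjusted p was below 0.05. In fed mice all intervals include 0, and in fasted mice Fdps, Sqle and Cyp51 are filled.

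The difference between the fasting effects on the 2 diets was tested as an interaction. The fall with fasting was smaller on the HF diet by 2.84 ± 0.75 for Sqle (edgeR adjusted p = 0.042), which was called, and by 2.10 ± 0.59 for Fdps (adjusted p = 0.057) and 1.65 ± 0.45 for Cyp51 (adjusted p = 0.052), which were not. Lss was at 1.08 ± 0.45 (adjusted p = 0.26), Hmgcs1 at 0.53 ± 0.42 (adjusted p = 0.66) and Srebf2 at -0.09 ± 0.41 (adjusted p = 0.97). Thus 1 of 6 members was called, with 2.46% of all genes called in either direction. The values of Sqle and Fdps rest on LF fasted mice with at most 15 reads of each gene. The call of Sqle lay close to the threshold: it was lost in 19 of the 30 fits that left out 1 mouse, with adjusted p between 0.025 and 0.14. Leaving out KO HF fasted replicate 3 gave 2.12, leaving out both mice with acinar pancreas markers gave 2.31, and leaving out both with adrenal cortex markers gave 2.71 (adjusted p = 0.088).

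No member was called different between KO and WT mice. The genotype effect averaged over the 4 settings lay between -0.17 for Lss (95% interval -0.63 to 0.30) and 0.08 for Sqle (-0.73 to 0.89), with 0 of 6 members called (edgeR). Acadm was the gene called in this comparison, 0.00865% of all genes. In each of the 4 single settings 0 of 6 members were called as well, again with 0.00865% of all genes. The widest single values were Fdps in LF fasted mice at -1.03 ± 0.82 and Sqle in HF fasted mice at 0.83 ± 0.70, neither of which was called. No difference by genotype was called in the fasting effect or the diet effect of any member, 0 of 6 in each case with 0% of all genes called. At an unadjusted p below 0.05 there was 0 of 6 as well. The differences ran from -0.0024 to 0.60 for fasting and from -0.14 to 1.05 for diet. The largest had wide 95% intervals, -1.02 to 2.21 for Sqle with fasting and -0.18 to 2.29 for Fdps with diet. A difference by genotype was thus not excluded. The 95% interval of Fdps for the genotype effect was -0.71 to 0.50, so differences within that range were not excluded.

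The other enzymes of sterol synthesis moved with the members. Of 13 such enzymes, all tested, 11 were called lower with fasting on average and 0 higher, with a median log2 fold change of -1.55, beside -2.07 for the 6 members and -0.002 for all genes. The share of all genes called lower was 9.14%. Sc5d, lathosterol oxidase, fell by 1.80 ± 0.13 (edgeR adjusted p = 1.5e-12), Fdft1, squalene synthase, by 1.23 ± 0.13 (adjusted p = 1.6e-09), and Acat2, which makes acetoacetyl-CoA in the cytosol, by 1.55 ± 0.14 (adjusted p = 1.9e-09). Pmvk, phosphomevalonate kinase, fell by 2.06 ± 0.22 (adjusted p = 8.6e-08). Hsd17b7, a sterol ketone reductase late in the pathway, was not called (-0.11 ± 0.14). On the LF diet 11 of 13 fell and on the HF diet 8 of 13, with medians of -1.74 and -1.24, where 9.41% and 1.19% of all genes fell. The interaction with diet was called for Sc5d (1.11 ± 0.25, adjusted p = 0.0099), 1 of the 13, beside 2.46% of all genes.

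**Figure D4:**
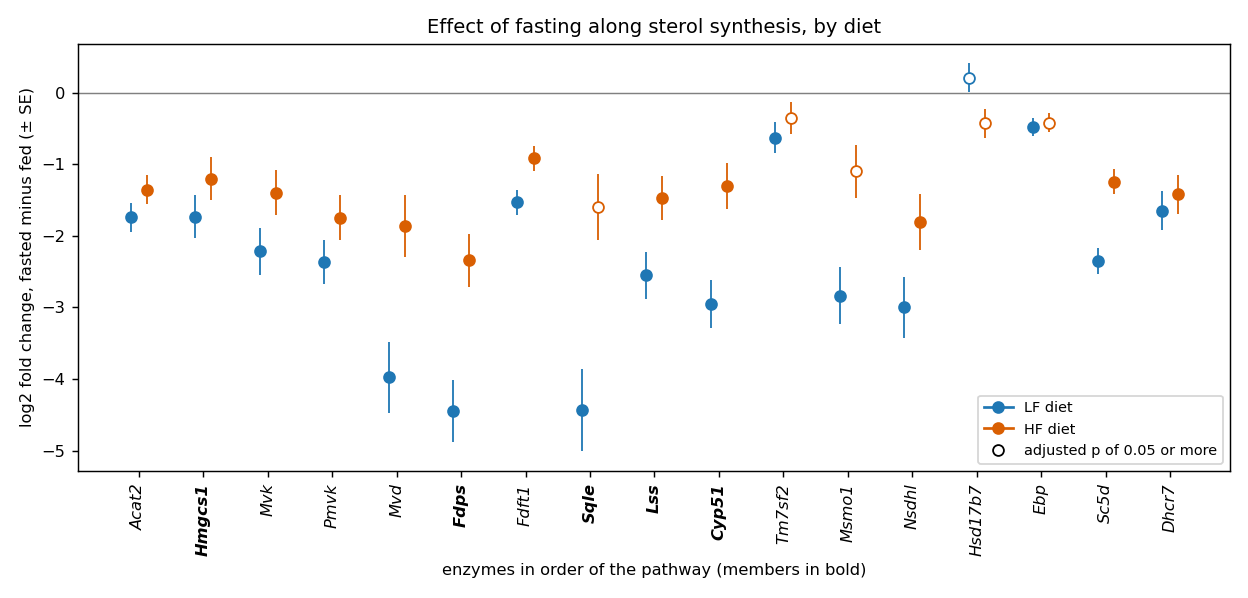
Log2 fold changes of fasted against fed mice, averaged over both genotypes, with SE, for 17 enzymes in the order of the pathway on the LF (blue) and HF (orange) diet; members are in bold, open points did not pass an adjusted p of 0.05, and Idi1 and 1 of the 13 other enzymes are not drawn. The blue points lie lowest at Fdps (-4.44), Sqle (-4.44) and Mvd (-3.98), and the orange ones at Fdps (-2.34).

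The genes that process SREBP and sense sterols were split. Of 8 genes, 4 were called lower with fasting and 1 higher, with a median of -0.26. Among all 11566 genes tested, 1057 were called lower and 1130 higher. Insig1, an SREBP target that holds SCAP in the endoplasmic reticulum, fell by 2.90 ± 0.24 (edgeR adjusted p = 1.9e-09). Stard4, a carrier of cholesterol between membranes, fell by 1.90 ± 0.12 (adjusted p = 7.6e-14), and Srebf1, the paralogue of Srebf2 that drives fatty acid synthesis, by 2.40 ± 0.22 (adjusted p = 1.6e-08). Insig2, which encodes the other INSIG protein, was 0.35 ± 0.11 higher (adjusted p = 0.022). The interaction with diet was called for 4 of these 8, beside 2.46% of all genes: Insig1 (2.58 ± 0.46, adjusted p = 0.0031), Stard4 (1.86 ± 0.24, adjusted p = 1.5e-05), Scap (0.76 ± 0.17, adjusted p = 0.0098) and Insig2 (-0.91 ± 0.22, adjusted p = 0.021). For Insig2, which rose with fasting on average, the negative value means a lower fasting effect on the HF diet than on the LF diet. Of the 6 genes of the non-sterol isoprenoid branch, which use the product of Fdps for ubiquinone, dolichol and protein prenylation, 0 were called by edgeR, and 2 had an unadjusted p below 0.05. At that threshold 3406 of the 11566 genes tested passed in either direction, so 2 of 6 was near the share over all genes. The log2 fold changes with fasting in this branch were -0.26 ± 0.12 for Dhdds and -0.23 ± 0.11 for Coq2, and -0.33 ± 0.34 for Pdss1 and 0.21 ± 0.23 for Ggps1. In the mean diet effect, 1 of the 13 other enzymes and 1 of the 8 processing genes were called higher and 0 lower, and for genotype 0 of these 27 genes were called by edgeR. For that diet effect, 261 of the 11566 genes tested were called higher and 143 lower.

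Mice of the same group differed in these genes together. After the mean of its group was subtracted from each mouse, the 10 pairs of the 5 enzymes correlated with r between 0.56 and 0.84 and a median of 0.68 over 30 mice, and Srebf2 correlated with each enzyme at 0.08 to 0.40. The pairs share libraries and their depth, so these values are descriptions. Srebf2 had few counts per mouse, which limits how high its correlations could be. In WT HF fed replicate 2 all 5 enzymes lay below the group mean, with differences of -1.199 to -1.443 on the log2 scale, while Srebf2 was at the mean. In KO HF fasted replicate 3 all 5 lay above it, by 0.74 to 1.67, and in WT HF fasted replicate 2 by 0.68 to 1.82. WT HF fasted replicate 2 carried the acinar pancreas markers, and KO HF fasted replicate 3 had 3300.5 CPM of acute-phase genes and 75666 CPM of hepatocyte markers, the highest of the 30 mice. The part of these markers in the values was not tested.

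**Figure D5:**
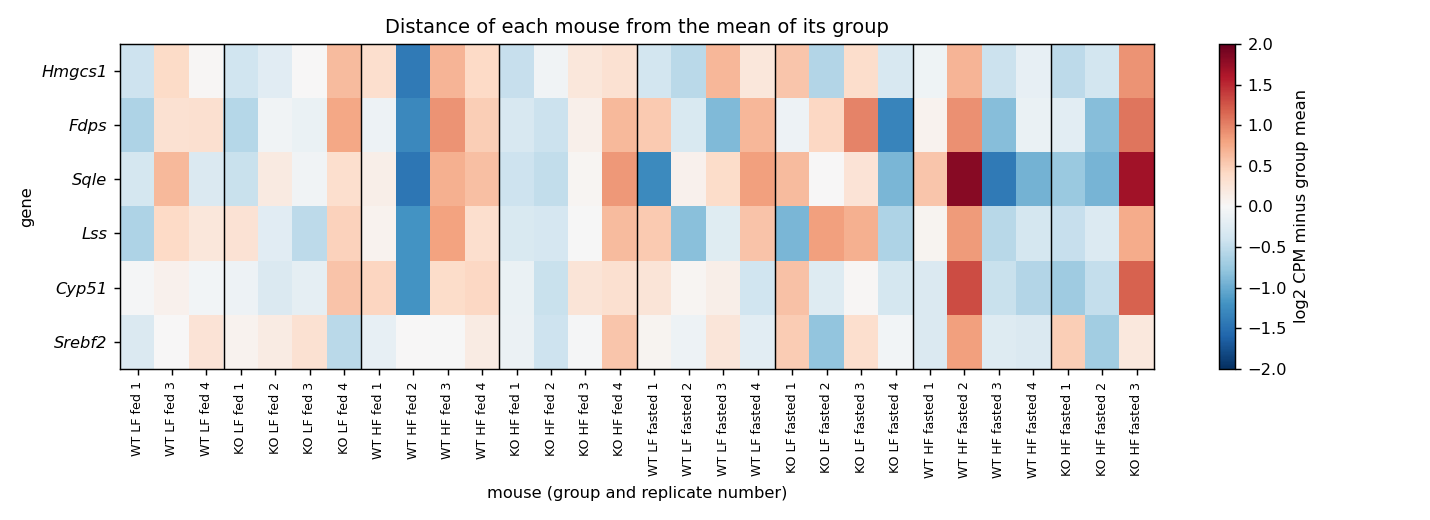
Colours give log2 CPM of each mouse minus the mean of its group, red above and blue below, for the 6 tested genes (rows) and the 30 mice (columns, with lines between groups). The 5 enzyme rows of WT HF fed replicate 2 are blue throughout, and those of WT HF fasted replicate 2 and KO HF fasted replicate 3 are red throughout.

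The genes whose levels were most like those of the 5 enzymes were found by correlating each gene with the mean of their standardized log2 CPM over the 30 mice. Of the first 10, 8 are given here. Msmo1 (r = 0.96), which acts after CYP51 in the pathway, Sc5d (0.96), Fdft1 (0.94), Stard4 (0.94), Mvd (0.93) and Nsdhl (0.93) were in the lists above. Aqp8, a water channel of the hepatocyte, was at 0.95. The pseudogene Gm3571 was at 0.95 too, and as it shares most of its sequence with Fdps its reads may come from Fdps. With group means subtracted, Msmo1 was again first (r = 0.92), followed by Dhcr7 (0.82) and Fdft1 (0.80). Without KO LF fasted replicate 4 and WT LF fasted replicate 2, the mice farthest from the median, these 8 correlations lay between 0.93 and 0.98. Spearman's rho over all 30 lay between 0.90 and 0.95. The points share the difference between fed and fasted mice, with which these genes also correlated, and the libraries.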

How the data were processed

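RNA from 32 mice, described by the study as liver, was profiled by 3′ mRNA sequencing. The library of KO HF fasted replicate 4 had the markers of heart. Per the labels, the submitters' processing notes name HISAT 0.1.5, SAMtools 1.2, HTSeq 0.6.1p1 and GRCm38, and the deposited values are raw read counts per gene, with 20076 genes and 2031053 to 4292200 counts per mouse. The strand setting and the handling of reads with several matches are not given in the sources used here. Genes kept by filterByExpr (11566) were normalised by TMM and fitted with 1 coefficient for each of the 8 groups in edgeR 4.0.16 (R 4.3.3), and contrasts were tested with glmQLFTest. P-values were adjusted over all genes tested (Benjamini-Hochberg) and called below 0.05. CPM of the members are counts per 1000000 reads of the kept genes, with library sizes adjusted by TMM. Marker sums used table totals adjusted by TMM factors of all 32 mice. The CPM of 3 counts used unadjusted table totals. Log2 CPM used a prior count of 2. The script was tested on simulated data.

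The 7 members and all gene lists were chosen with earlier results of these data known. All 7 members are named. The rule also named the 4 genes of each list with the smallest p for the mean fasting effect and the 10 genes with the highest Pearson correlation to the mean of the enzymes; some of these genes and 1 list are not reported here. Idi1 did not pass the filter, so this mean held 5 enzymes. Alternatives were other sets of mice, RLE normalisation, DESeq2 1.42.0, limma voom (3.58.1), other filters, fits of the compared groups alone, terms for lane, age and replicate number, and leaving out each mouse in turn. Alternatives without the 2 mice above 1000 CPM of acinar pancreas markers and without the 2 above 100 CPM of adrenal cortex markers were added after the marker sums were seen. Copies were sought with BLAST 2.17.0 among annotated transcripts. Gene positions are from a GRCm38 annotation and promoters from RefSeq.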

Additional observations from a re-analysis of the deposited data

Results flagged for a closer look

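Among 36 sets of values of 1 member in 1 group of 4 mice, 4 held a mouse far from the other three; chance alone gives about 1 in 20. Cyp51 was at 283 CPM in KO LF fed replicate 4, where the others of the group had 154 to 176 CPM. It was at 169.7 CPM in WT HF fasted replicate 2, beside 45.5 to 55.9 CPM, and at 75.8 CPM in WT HF fed replicate 2, beside 226 to 236 CPM. Srebf2 was at 9.03 CPM in WT HF fasted replicate 2, beside 3.85 to 3.96 CPM, and this mouse also carried the acinar pancreas markers.

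The fasting effect of Sqle differed between the diets by 2.84 ± 0.75 on the log2 scale, tested as an interaction (edgeR adjusted p = 0.042), with the call lost in 8 of 11 alternatives other than leaving out 1 mouse.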

How the results depend on the processing

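The fall of the 5 enzymes with fasting, averaged over the settings, stayed called wherever it was tested again. This covered 207 values, 1 for each enzyme in each refit that tested it. By contrast, the HF comparisons, the diet effect and the interaction depended on the mice and the tool. The cause was not tested unless given here. With at least 10 counts required in every mouse, only 2 members were tested, and the members called were 2 in WT LF, 0 in WT HF, 2 in KO LF and 2 in the mean for fasting, and 1 each for diet in WT fasted mice, in the mean and in fasted mice of both genotypes. With all 32 mice, among them the library with heart markers, fasting called 0 in WT HF and 1 in KO HF, and the interaction 0. DESeq2 called 2 in WT HF and 1 in KO HF for fasting, 1 in WT fasted, 3 in KO fasted and 2 in the mean for diet, and 3 for the interaction. Limma voom called 1 for diet in fasted mice of both genotypes. The interaction gave 0 calls with no filter, with lane as a term, with age as a term, without the 2 mice with acinar pancreas markers and without the 2 with adrenal cortex markers. Diet in KO fasted mice gave 1 with age, 1 with the replicate block and 1 without the 2 mice with acinar pancreas markers, and fasting in WT HF gave 4 without them. When 1 mouse was left out, the counts ranged from 0 to 4 for fasting in WT HF, 0 to 2 for diet in KO fasted mice, 0 to 3 for mean diet, 0 to 3 for the interaction and 1 to 3 for diet in fasted mice of both genotypes.

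The sign of small effects turned. The mean genotype effect was -0.033 for Sqle, -0.084 for Cyp51 and -0.0082 for Srebf2 with all 32 mice. For Cyp51 it was -0.0032 with WT LF fed replicate 2 put back, -0.049 with age and -0.0012 with the replicate block. Without the mice with acinar pancreas markers it was 0.0027 for Hmgcs1 and 0.034 for Fdps. With 1 mouse left out it ranged from -0.31 to 0.0059 for Fdps, -0.28 to 0.31 for Sqle, -0.21 to 0.18 for Cyp51 and -0.029 to 0.14 for Srebf2. The fasting effect of Srebf2 in KO LF ranged from -0.32 to 0.16 and its interaction from -0.29 to 0.057.

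Replicate numbers did not pair the mice: 98 pairs with the same number in 2 groups had a median correlation of deviations of 0.0060 (range -0.20 to 0.17), and other pairs -0.0021. Mice of 1 group differed beyond sampling noise in all 42 pairs among the 30 mice. Srebf2 and Idi1 had few counts, which limits what could be detected for them.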

Other observations

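Fatty acid synthesis, which draws on the same cytosolic acetyl-CoA, fell with fasting in all 7 listed genes, with a median log2 fold change of -1.82 averaged over the settings. The share of all genes called lower was 9.14%. Acly, which makes that acetyl-CoA, fell by 2.78 ± 0.22 (edgeR adjusted p = 1.0e-09), Fasn by 3.28 ± 0.31 (adjusted p = 4.2e-08), Elovl6 by 1.82 ± 0.20 (adjusted p = 3.1e-07) and Thrsp by 3.88 ± 0.43 (adjusted p = 4.1e-07).

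Of 6 genes for esterification, HDL uptake and bile acid synthesis, 2 rose with fasting: Cyp7a1, the first enzyme of bile acid synthesis, by 2.08 ± 0.30 (edgeR adjusted p = 1.7e-05), and Cyp8b1, which sets the share of cholic acid, by 1.31 ± 0.13 (adjusted p = 3.8e-09). Soat1 was at 0.42 ± 0.19 and Soat2 at -0.34 ± 0.16, and neither was called. Of 7 targets of the sterol receptor LXR, 1 rose, Mylip, by 0.62 ± 0.20 (adjusted p = 0.024), while Nr1h3 was at -0.19 ± 0.10, Abcg5 at 0.20 ± 0.15 and Abcg1 at -0.21 ± 0.26. Among all 11566 genes tested, 1130 were called higher with fasting, so 1 of 7 was near the share over all genes. The interaction with diet was called for Cyp8b1 (-1.005 ± 0.26, adjusted p = 0.028), beside 2.46% of all genes. As Cyp8b1 rose with fasting, the negative value means a smaller rise on the HF diet, where the fall of Sqle was smaller too.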
